A study of Homo sapiens with 6 samples.

Results

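The genes described here are the semaphorins of classes 3 to 7, which are guidance ligands, and the plexins and neuropilins, which are their receptors. They were taken by gene symbol, as every row of the count table named SEMA3 to SEMA7 with a letter, PLXNA to PLXND with a digit, NRP1 or NRP2. This gave 31 of 60708 genes, of which 20 are ligands and 11 are receptors. Earlier results of these data were known when the members were chosen. All 6 samples were Caki-1, an established human clear cell renal carcinoma line whose own VHL is wild type. The 3 VC samples were vector controls, and the 3 VHL-KO samples had been infected with a lentiviral CRISPR vector carrying a guide RNA against VHL. The study's methods do not spell out how these VC cells were infected, selected or cloned. Vector exposure, selection and cloning may therefore differ between the groups. According to the study's methods, the VHL-KO cells were selected with puromycin, grown out as clones and checked for VHL protein by immunoblot. How many clones or which guide gave the sequenced RNA is not given in the sources used here, so a difference between clones and a difference between genotypes cannot be told apart. The labels number the samples 1 to 3 within each group without saying that they came from separate cultures, and the p-values below then measure only the spread between these samples, which may be technical.

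Semaphorins were found as signals that steer growing axons, and they also act on the shape, adhesion and movement of epithelial, endothelial and immune cells. Class 3 members are secreted and mostly reach plexin A or plexin D receptors through a neuropilin that binds the ligand, whereas classes 4 to 6 span the membrane and class 7 is held by a lipid anchor. Plexins carry a cytoplasmic GTPase-activating domain for Ras-family GTPases, and neuropilins also bind vascular endothelial growth factors, which are classic products of kidney tumor cells that have lost VHL.

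Total counts were 31789923, 28463579 and 34881739 in VC 1, VC 2 and VC 3, and 29139722, 22805385 and 22628246 in VHL-KO 1, VHL-KO 2 and VHL-KO 3. Levels below are CPM after TMM scaling, that is, counts relative to the effective size of each library. A gene at 0 in a library could still be present at up to 3 counts, which was 0.0790 CPM in the deepest library (VC 3) and 0.141 CPM in the shallowest (VHL-KO 3), and this limit covers counting error only. VHL itself, the substrate receptor of the ubiquitin ligase that marks hypoxia-inducible factors for destruction, was at 42.6, 37.8 and 40.1 CPM in VC and at 34.8, 30.4 and 30.5 CPM in VHL-KO. The VHL mRNA was thus present in every VHL-KO sample, below the lowest VC sample, with a log2 fold change of -0.33 (SE 0.11) and a Benjamini-Hochberg adjusted p of 0.0109 in edgeR. That call was lost with upper quartile scaling (-0.22), with offsets for GC content and length (-0.15), and on leaving out VC 1 (-0.28) or VHL-KO 2 (-0.30), and 23.5% of the exonic bases of VHL overlap a gene on the other strand. Counts per gene do not show whether the guide's target was edited.

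Targets of hypoxia-inducible factors gave a second look at the labels. CA9, a carbonic anhydrase that is a standard marker of lost VHL function, had 0, 0 and 2 counts in VC against 288, 247 and 233 counts in VHL-KO. NDRG1, a hypoxia-induced stress gene, had a log2 fold change of 6.03 (SE 0.11), VEGFA one of 2.48 (SE 0.11), ANKRD37 one of 1.96 (SE 0.21) and the glucose transporter SLC2A1 one of 0.70 (SE 0.09). EGLN3, an oxygen-sensing prolyl hydroxylase and itself a hypoxia-inducible gene, went the other way, from 69, 41 and 67 counts in VC to 10, 20 and 19 counts in VHL-KO (log2 fold change -1.26, SE 0.35; edgeR adjusted p = 0.00337). Of these 7 genes, VHL included, 5 were called higher and 2 lower, where 28.5% of all genes tested were called higher and 31.2% lower. With so many calls over all genes, a count of calls here or among the markers below says little about the labels, and the sizes above are what there is to read. Of their exonic bases, 35.7% in CA9 and 40.3% in ANKRD37 overlap a gene on the other strand.

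Epithelial markers were present in the samples, though not every one on a list of kidney epithelial markers. Of 6 kidney epithelial markers, KRT8 was the most abundant, PAX2 had 0 counts in all 6 samples, and the sum was 1608, 1822 and 1453 CPM in VC against 2259, 2176 and 2191 CPM in VHL-KO, so that every VHL-KO sample lay above every VC sample. The list went both ways, with 3 markers called higher and EPCAM, an epithelial adhesion molecule, called lower at 56, 31 and 50 counts in VC against 17, 14 and 4 in VHL-KO (log2 fold change -1.42, SE 0.41). The 6 endothelial markers summed to 0.732, 0.942 and 0.421 CPM in VC against 0.973, 0.324 and 1.45 CPM in VHL-KO, which overlap, with ROBO4 the most abundant and TEK at 0 throughout. PECAM1, of that list, was called higher at 1, 5 and 0 counts against 14, 7 and 9, a call lost without VC replicate 3. The 6 leukocyte markers summed to 2.02, 2.36 and 1.501 CPM in VC against 4.79, 5.65 and 3.99 CPM in VHL-KO, higher in every VHL-KO sample and mostly from CD14, which was called higher (log2 fold change 1.47, SE 0.23), with CD3E at 0 throughout and PTPRC at no more than 1 count. Only 2 leukocyte markers were tested, with a median log2 fold change of 0.38, so the other one, not called, went the other way. The 6 fibroblast markers, mostly COL1A1, summed to 43.3, 47.3 and 37.2 CPM in VC and to 30.0, 27.2 and 25.5 CPM in VHL-KO, lower in every VHL-KO sample, with both tested markers called lower (COL1A1 at -0.42, SE 0.12, and PDGFRB at -1.94, SE 0.20) and LUM and COL3A1 at 0 throughout. The part of these marker shifts in the differences below was not tested, and in bulk RNA fewer cells making a transcript and less transcript per cell cannot be told apart.

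The question put to the data was which ligands and which receptors differed between VHL-KO and VC cells. In the fit over all 17401 genes that reached 10 reads in some sample, 59.7% of genes passed an adjusted p of 0.05 (edgeR, quasi-likelihood, Benjamini-Hochberg), 28.5% as higher and 31.2% as lower in VHL-KO, and 13.9% and 12.3% did so with a change of at least 2-fold up or down. Of the 31 family members, 25 entered the test and 16 of them were called, 10 as higher and 6 as lower. That share is near the share of all genes, so the number of changed members says little by itself, and the account below concerns which members moved. The ligands divided evenly, with 5 higher, 5 lower and 6 not called among 16 tested, while of 9 tested receptors 5 were higher, 1 was lower and 3 were not called. The median log2 fold change was 0.33 for ligands and 0.46 for receptors, against -0.01 for all genes tested. The ligand median lies between SEMA6A and SEMA3G, which had few counts and were not called, and it was -0.01 when 10 reads were required in every sample and 0.043 without VC replicate 3. The receptor median was 0.24 with offsets for GC content and length. Scaling by library size alone moved the median of all genes to -0.20 and the calls of all genes from 47.7% to 35.8% higher, and upper quartile scaling moved these to 0.10 and 55.03%. For all 16 called members the VC and VHL-KO samples did not overlap in CPM, and for the other 9 tested members they did. Over all genes tested, the groups did not overlap for 64.7%.

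**Figure D1:**
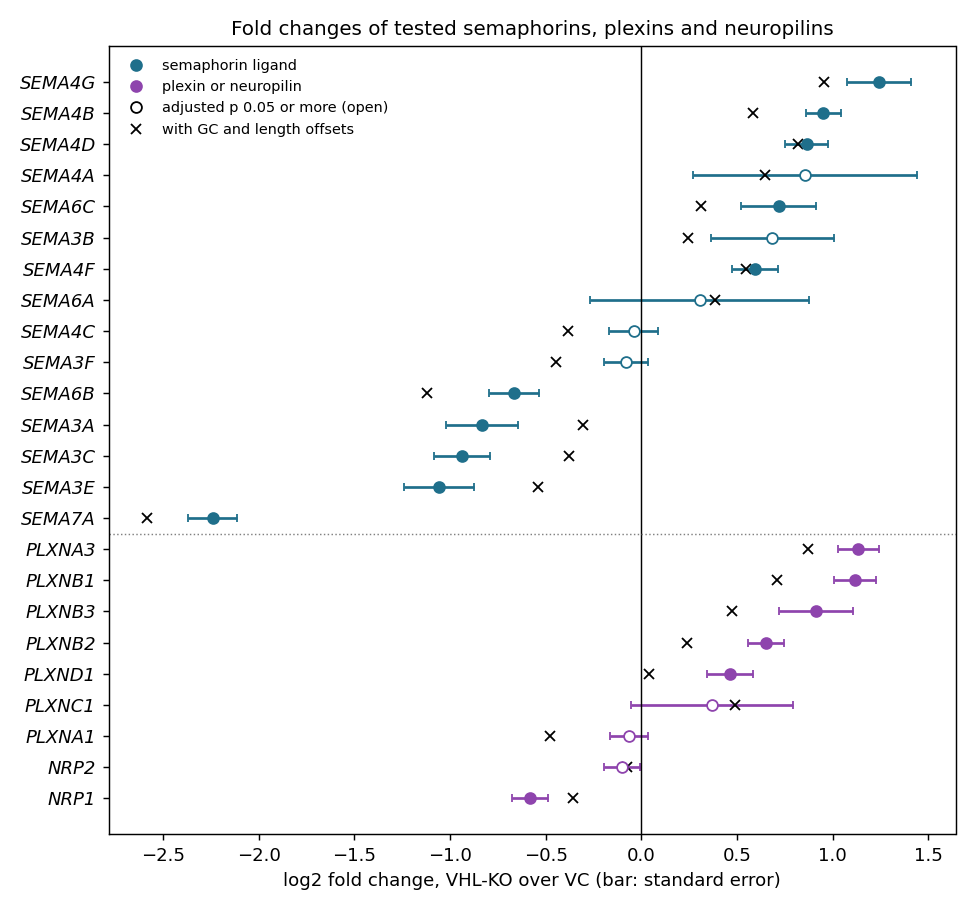
Log2 fold change of VHL-KO over VC for 15 semaphorins and 9 plexins and neuropilins, with bars for the standard error (3 samples a group), filled points for adjusted p under 0.05 in edgeR and crosses for the fold change after GC and length offsets; SEMA3G is left out. SEMA7A stands farthest to the left at -2.24, SEMA4G farthest to the right at 1.24, and PLXNA3 and PLXNB1 lead the receptors.

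Base composition moved with the groups and has to be read beside these calls. Genes under 40% GC had a median log2 fold change of -0.45 and genes at 60% GC or more one of 0.50, and the correlation of fold change with GC over 17355 genes was 0.31 (Spearman, across genes, which are not independent replicates). Within VC, the deviations of single samples from the group followed GC in opposite directions, with a Spearman coefficient of 0.565 in VC 2 and -0.570 in VC 3. The 3 class 3 semaphorins called lower are AT-rich (SEMA3A 36.7%, SEMA3C 37.1% and SEMA3E 38.0% GC), and the plexins B called higher are GC-rich (62.3% to 65.1%). SEMA7A, at 60.5% GC, and SEMA6B, at 69.7%, fell against that trend. For this reason each fold change below is followed, where the difference matters, by its value in a fit with offsets that remove every library's own trend with GC content and exonic length. The trends were taken against the mean of all samples. The offsets therefore also remove any real difference between the groups that follows GC content or length.

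Promoter letters were read for members that changed by at least 2-fold, since hypoxia-inducible factors recognise a short core in which A or G precedes CGTG. RefSeq's table (GRCh38.p14) held the 250 bases before a transcript start for 27 of the 31 members, with several starts for some, 48 windows in all; SEMA3A, SEMA6A, SEMA6B and NRP1 had no entry. ACGTG or GCGTG stood on either strand in 16 of the 48 windows, against 43.2% of 35116 windows of all genes (18.5% for ACGTG and 32.2% for GCGTG). Among 9 windows of the 5 members called with at least a 2-fold change, 3 held a match. Shown here are the windows next to the outermost annotated end of 4 of these 5 genes, which are the SEMA7A window at chr15:74433959-74434208 (minus strand), the SEMA3E window at chr7:83649140-83649389 (minus strand), the PLXNA3 window at chrX:154458031-154458280 (plus strand) and the PLXNB1 window at chr3:48430087-48430336 (minus strand). Each is written 5' to 3' on the gene's strand, ends at the base before the start, overlaps no annotated exon, and has matches to ACGTG or GCGTG on either strand in capitals.
SEMA7A: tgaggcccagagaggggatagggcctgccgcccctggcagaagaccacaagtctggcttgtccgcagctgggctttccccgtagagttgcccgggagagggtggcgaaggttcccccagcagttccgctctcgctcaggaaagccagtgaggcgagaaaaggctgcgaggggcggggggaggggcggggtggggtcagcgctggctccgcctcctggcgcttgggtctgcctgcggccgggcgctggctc
SEMA3E: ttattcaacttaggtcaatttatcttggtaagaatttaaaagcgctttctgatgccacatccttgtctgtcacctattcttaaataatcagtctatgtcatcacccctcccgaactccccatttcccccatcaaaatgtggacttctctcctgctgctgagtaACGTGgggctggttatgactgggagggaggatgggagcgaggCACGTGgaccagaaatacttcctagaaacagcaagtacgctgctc
PLXNA3: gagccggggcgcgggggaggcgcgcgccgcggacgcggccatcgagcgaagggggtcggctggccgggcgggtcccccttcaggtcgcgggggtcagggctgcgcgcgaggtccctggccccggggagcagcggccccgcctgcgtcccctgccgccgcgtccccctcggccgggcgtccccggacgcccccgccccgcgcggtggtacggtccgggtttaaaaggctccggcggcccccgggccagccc
PLXNB1: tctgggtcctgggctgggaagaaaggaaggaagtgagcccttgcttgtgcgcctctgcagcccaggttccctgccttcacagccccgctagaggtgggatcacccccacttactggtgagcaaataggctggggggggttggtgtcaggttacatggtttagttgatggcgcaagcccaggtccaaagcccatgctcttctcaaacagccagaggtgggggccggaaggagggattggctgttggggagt
Of the 4 windows shown, that of SEMA3E held matches, beginning 87 bases before the start and again at 45 bases, where the run CACGTG reads the same on both strands and so counts on each. The other matches of these 5 genes were 1 each in windows not shown. SEMA7A had an ACGTG beginning at position -194 from another start, in the window chr15:74433705-74433954 (minus strand), of which 214 bases are annotated as exon. SEMA4G had a GCGTG beginning at position -122 from an internal start inside the gene (window chr10:100972279-100972528, plus strand). A match describes letters and not a bound site, and its absence says only that these letters are not in that window.

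SEMA7A showed the largest change of any family member called. It encodes the lipid-anchored semaphorin, which signals through integrin beta 1 as well as plexin C1, and lies on the minus strand at chr15:74409289-74433958 (GRCh38, GENCODE 44). Its counts were 1604, 1723 and 1855 in VC against 253, 247 and 250 in VHL-KO, that is 47.0, 58.0 and 48.9 CPM against 9.47, 11.5 and 11.7 CPM. All 3 VHL-KO samples were far below all 3 VC samples, and the samples within each group lay close together. The mean fell from 51.3 ± 5.89 to 10.9 ± 1.23 CPM (SD, n = 3), which was 4.72-fold lower in VHL-KO, with a log2 fold change of -2.24 (SE 0.13) and an edgeR adjusted p of 2.8e-13. With the GC and length offsets it was -2.58. Per kilobase of exon, SEMA7A went from the second highest ligand level in VC (13.5 CPM per kb) to the eighth in VHL-KO (2.86 CPM per kb).

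**Figure D2:**
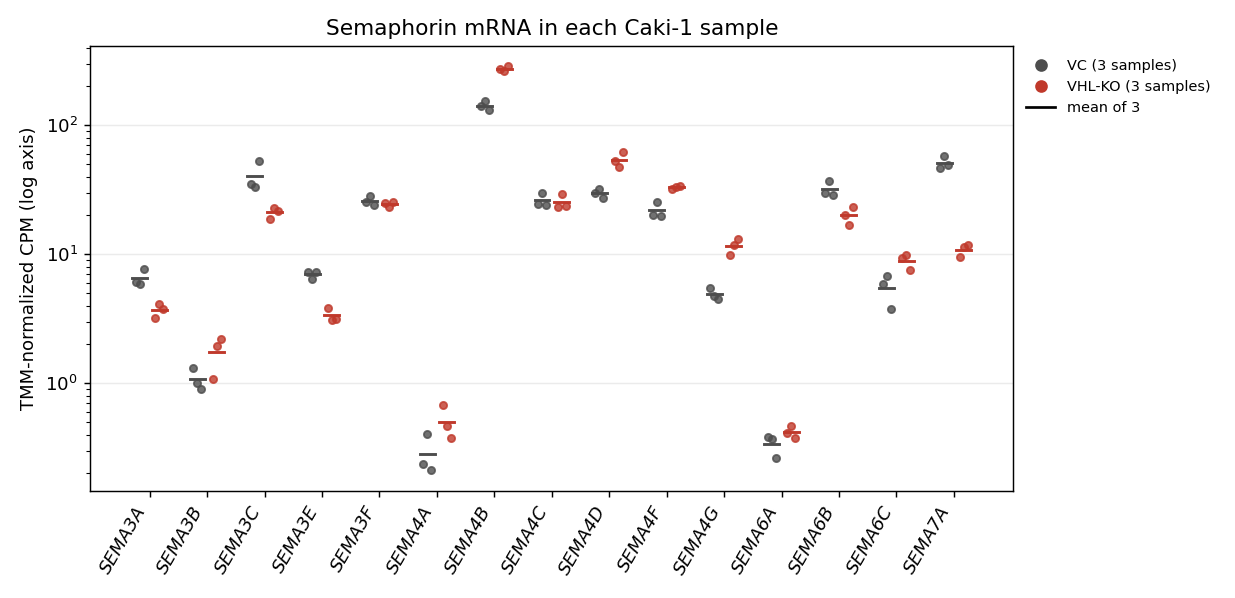
TMM-normalized CPM (log axis) of 15 semaphorins in each of the 3 VC (grey) and 3 VHL-KO (red) samples, with a bar for the mean of each group; SEMA3G, which had samples at 0, is left out. The groups separate most widely for SEMA7A, from 51.3 to 10.9 CPM, and SEMA4B has the highest level in both groups.

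In class 4, 4 of the 6 members, all tested, were called higher (SEMA4B, SEMA4D, SEMA4F and SEMA4G) and 0 lower, while SEMA4A and SEMA4C were not called and SEMA4C changed sign with the scaling. Over all genes tested 59.7% were called, 28.5% as higher, so the share of the class that was called is near that of all genes. The median log2 fold change was 0.86, midway between SEMA4A, which had few counts, and SEMA4D, and it was 0.90 when 10 reads were required in every sample, which left SEMA4A out. This median was 0.62 with offsets and 0.67 with library size alone. SEMA4B, a transmembrane semaphorin that binds the scaffold protein PSD-95 through its tail, was the most abundant ligand in both groups, at 4805, 4577 and 4958 counts in VC against 7284, 5654 and 6132 counts in VHL-KO. On the CPM scale this was 140.7, 154.0 and 130.6 against 272.7, 262.0 and 287.6, so every VHL-KO sample lay well above every VC sample. The log2 fold change was 0.95 (SE 0.09; edgeR adjusted p = 2.7e-09), and 0.58 with offsets. SEMA4G had 187, 140 and 170 counts in VC against 264, 255 and 280 in VHL-KO, or 5.48, 4.71 and 4.48 against 9.88, 11.8 and 13.1 CPM. Its groups were also apart, with a log2 fold change of 1.24 (SE 0.17; edgeR adjusted p = 6.8e-07; 0.95 with offsets), although 28.0% of its exonic bases overlap MRPL43 and another gene on the opposite strand, and the strand setting of the counting is not given in the sources used here.

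SEMA4D, the CD100 ligand that activates plexin B1, rose from 29.7 ± 2.42 to 54.0 ± 7.31 CPM (SD, n = 3), with 29.8, 32.0 and 27.2 CPM in VC against 52.5, 47.5 and 61.9 CPM in VHL-KO. This was a log2 fold change of 0.86 (SE 0.11; edgeR adjusted p = 5.1e-07) that offsets hardly moved (0.82). SEMA4F, another transmembrane member, had 692, 761 and 758 counts in VC against 863, 718 and 722 in VHL-KO, which are 20.3, 25.6 and 19.97 CPM against 32.3, 33.3 and 33.9 CPM. The raw counts of the groups overlap, in VHL-KO libraries that were smaller in total than most VC libraries, whereas the scaled levels do not, and the log2 fold change was 0.60 (SE 0.12; edgeR adjusted p = 0.00015; 0.55 with offsets). SEMA4C, a plexin B2 ligand, stood at 24.7, 29.65 and 24.2 CPM in VC against 23.2, 29.4 and 23.7 CPM in VHL-KO. Its groups overlapped and it was not called (log2 fold change -0.04, SE 0.13), but with offsets it was called lower at -0.38. SEMA4A, known from immune cells and the retina, had only 8 to 18 counts in any sample and was not called (0.86, SE 0.58).

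Class 3 had no called increase, although SEMA3B was called higher under 3 alternatives. Of 7 secreted members, 6 were tested, 0 were called higher and 3 lower (SEMA3A, SEMA3C and SEMA3E), where 31.2% of all genes were called lower, and the median log2 fold change was -0.46. That median rests in part on SEMA3G, which had few counts, and was -0.80 when 10 reads were required in every sample and -0.88 without VC replicate 2, where SEMA3G was not tested. With no filter beyond 1 count it was -0.12 over all 7 members, with offsets -0.34. SEMA3C, which signals through either neuropilin and plexin D1, was the most abundant of the class in VC, with 1188, 992 and 2002 counts against 501, 494 and 462 in VHL-KO. In CPM these were 34.8, 33.4 and 52.7 against 18.8, 22.9 and 21.7. VC 3 was the highest sample by a wide margin, yet VC 1 and VC 2 were also above all VHL-KO samples. The log2 fold change was -0.94 (SE 0.15; edgeR adjusted p = 5.4e-06), -0.68 without VC replicate 3 and -0.38 with offsets.

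SEMA3E, a ligand that binds plexin D1 without a neuropilin, had 250, 191 and 278 counts in VC against 103, 67 and 67 in VHL-KO. The levels of 7.32, 6.43 and 7.32 CPM in VC were all above those of 3.86, 3.11 and 3.14 CPM in VHL-KO, with a clear gap between the groups. It was 2.08-fold lower (log2 fold change -1.06, SE 0.18; edgeR adjusted p = 2.6e-05), and with offsets the log2 fold change shrank to -0.54. SEMA3A, the founding collapsin that works through NRP1, had 6.09, 5.92 and 7.665 CPM in VC against 3.22, 4.125 and 3.75 CPM in VHL-KO. Its groups did not overlap and the log2 fold change was -0.83 (SE 0.19; edgeR adjusted p = 0.000537), but the call was lost with offsets (-0.30; edgeR adjusted p = 0.105, in a range of 7.7e-05 to 0.105 over 14 alternatives, DESeq2 included). These 3 genes and SEMA3D lie on the long arm of chromosome 7, SEMA3C at chr7:80742538-80922359, SEMA3E at chr7:83363238-83649139, SEMA3A at chr7:83955777-84492724 and SEMA3D at chr7:84995553-85187056 (GRCh38, GENCODE 44). SEMA3D was close to undetected, at 0 to 4 counts, and was not tested.

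The other secreted members gave no call. SEMA3F, an NRP2 ligand, was at 25.4, 28.1 and 24.3 CPM in VC against 25.1, 23.3 and 25.2 CPM in VHL-KO, overlapping groups with a log2 fold change of -0.08 (SE 0.12); with offsets it was called lower at -0.45, and with library size alone at -0.27. SEMA3B, which lies near SEMA3F on chromosome 3 and also binds NRP2, had 29 to 47 counts over all samples and a log2 fold change of 0.69 (SE 0.32; edgeR adjusted p = 0.0695). Without VHL-KO replicate 1, its lowest VHL-KO sample, SEMA3B was called higher at 0.96, and it was also called with upper quartile scaling (0.80) and when 10 reads were required in every sample (0.71). With offsets it was 0.24 and with library size alone 0.50, not called in either. SEMA3G passed the filter only through VC 2, with 0, 10 and 0 counts in VC against 0, 4 and 5 in VHL-KO, too few to detect a difference at this depth.

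Classes 5 and 6 were sparse apart from SEMA6B and SEMA6C. SEMA6B, a transmembrane ligand of plexin A receptors, had 1026, 1102 and 1096 counts in VC against 541, 366 and 497 counts in VHL-KO, or 30.0, 37.1 and 28.9 against 20.2, 16.96 and 23.3 CPM. All VHL-KO samples were below all VC samples, with a log2 fold change of -0.66 (SE 0.13; edgeR adjusted p = 0.00013) that grew to -1.12 with offsets. SEMA6C had 5.89, 6.73 and 3.74 CPM in VC against 9.36, 9.92 and 7.504 CPM in VHL-KO, without overlap. Its log2 fold change of 0.72 (SE 0.20; edgeR adjusted p = 0.00275) fell to 0.31 with offsets, where the call was lost (edgeR adjusted p = 0.101, in a range of 0.000102 to 0.101 over 14 alternatives, DESeq2 included). SEMA6A had 8 to 13 counts and was not called (0.31, SE 0.57). SEMA5A and SEMA6D had 0 counts in all 6 samples and could not be told from absent at this depth, and SEMA5B had 5 counts in VHL-KO 3 alone. These 3 members were not tested.

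The makeup of the ligands shifted within each sample. Levels between genes are compared per kilobase of exon and given as a description with no test, and these shares also carry each library's trend with GC content. SEMA4B supplied 31.9%, 30.9% and 29.3% of the summed semaphorin level in VC and 54.7%, 52.6% and 53.7% in VHL-KO. All class 4 members together went from 47.0% ± 1.93 to 74.8% ± 0.29, class 3 from 20.9% ± 3.18 to 13.2% ± 0.39, and class 7 from 20.4% ± 0.90 to 3.92% ± 0.38 (SD, n = 3). The summed level itself was 66.0 ± 4.63 CPM per kb in VC and 73.1 ± 3.09 in VHL-KO. In VC the order was SEMA4B (20.3 CPM per kb), SEMA7A (13.5), SEMA6B (6.79), SEMA3C (6.61) and SEMA3F (5.38), where the ranges of mean ± SD of SEMA6B, SEMA3C and SEMA3F overlapped from each to the next. In VHL-KO it was SEMA4B (39.2 CPM per kb), SEMA4F (5.32), SEMA3F (5.08), SEMA6B (4.28) and SEMA4C (4.06), followed by SEMA4D (3.81). From SEMA4F on, each range of mean ± SD overlapped the next, so that neighboring places are not separated. The range of SEMA4F lay above those of SEMA6B, SEMA4C and SEMA4D.

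**Figure D3:**
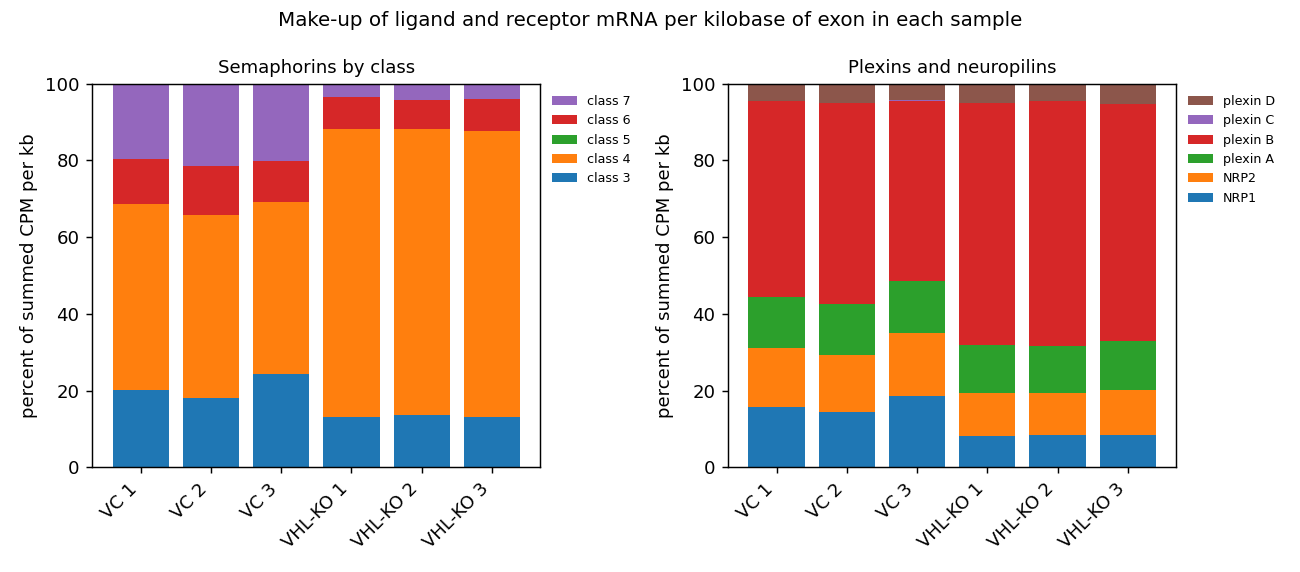
Percent of the summed CPM per kb of exon taken by each semaphorin class (left) and by NRP1, NRP2 and each plexin class (right), stacked to 100 in each of the 6 samples. Class 4 takes 44.8% to 48.4% of the ligand level in the VC samples and 74.6% to 75.1% in the VHL-KO samples, and class 7 shrinks.

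Among receptors, 7 of the 9 plexins were tested, of which 5 were called higher (PLXNA3, PLXNB1, PLXNB2, PLXNB3 and PLXND1) and 0 lower, while PLXNA1 and PLXNC1 were not called. With library size alone or with offsets PLXND1 was not called and PLXNA1 was called lower. These counts stand beside 59.7% of all genes called and 28.5% called higher, and the plexins had a median log2 fold change of 0.65. PLXNA3, on the X chromosome at chrX:154458281-154477779 (plus strand), is a coreceptor partner of neuropilins in class 3 signaling. It had 1073, 924 and 1017 counts in VC against 1641, 1371 and 1515 in VHL-KO, or 31.4, 31.1 and 26.8 against 61.4, 63.5 and 71.1 CPM. Every VHL-KO sample was close to double the VC level or above it, and the gene was 2.20-fold higher (log2 fold change 1.13, SE 0.11; edgeR adjusted p = 2.0e-09; 0.87 with offsets).

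Of the 5 called plexins, 3 are the plexins B. PLXNB1, the SEMA4D receptor, at chr3:48403854-48430086 on the minus strand, had 858, 846 and 874 counts in VC against 1371, 1226 and 1240 in VHL-KO. These were 25.1, 28.5 and 23.0 CPM against 51.3, 56.8 and 58.2 CPM, well apart, with a 2.17-fold higher level (log2 fold change 1.12, SE 0.11; edgeR adjusted p = 4.8e-09; 0.71 with offsets). The ligand SEMA4D and this receptor were therefore both higher in the same 3 samples. Since 28.5% of all genes were called higher, this pairing says little by itself, and a link was not tested. PLXNB2, a receptor of class 4 semaphorins and the most abundant receptor here, had 11233, 11363 and 11467 counts in VC against 13128, 11513 and 12078 in VHL-KO, or 329.0, 382.4 and 302.1 against 491.5, 533.6 and 566.5 CPM. Its groups did not overlap, and the log2 fold change of 0.65 (SE 0.10; edgeR adjusted p = 2.2e-06) was reduced to 0.24 with offsets. PLXNB3, the SEMA5A receptor, had 3.54, 6.06 and 4.08 CPM in VC against 9.06, 7.37 and 9.19 CPM in VHL-KO. It was called at a log2 fold change of 0.91 (SE 0.19; edgeR adjusted p = 0.000273; 0.48 with offsets), with 20.4% of its exonic bases shared with SRPK3 on the same strand.

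PLXND1, the receptor of SEMA3E, had 1375, 1531 and 1505 counts in VC against 1523, 1152 and 1508 in VHL-KO. In CPM this was 40.3, 51.5 and 39.6 against 57.0, 53.4 and 70.7, so that VHL-KO 2 lay only just above VC 2. The call (log2 fold change 0.46, SE 0.12; edgeR adjusted p = 0.00181) depended on the scaling: its value was 0.27 with library size alone (adjusted p = 0.0556, edgeR) and 0.04 with offsets (adjusted p = 0.690, edgeR), in a range of 4.2e-06 to 0.690 over 14 alternatives, DESeq2 included. PLXNA1, a broadly expressed partner of NRP1, had 3889, 3978 and 4472 counts in VC against 2915, 2368 and 2798 in VHL-KO, or 113.9, 133.9 and 117.8 against 109.1, 109.7 and 131.2 CPM. The scaled groups overlapped and it was not called (log2 fold change -0.06, SE 0.10), but it was called lower with offsets (-0.48) and with library size alone (-0.25). PLXNC1, the SEMA7A receptor, was detected in every sample at a low level of 16 to 29 counts and was not called (0.37, SE 0.42). PLXNA2 and PLXNA4 had 0 counts in all 6 samples and were not tested.

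**Figure D4:**
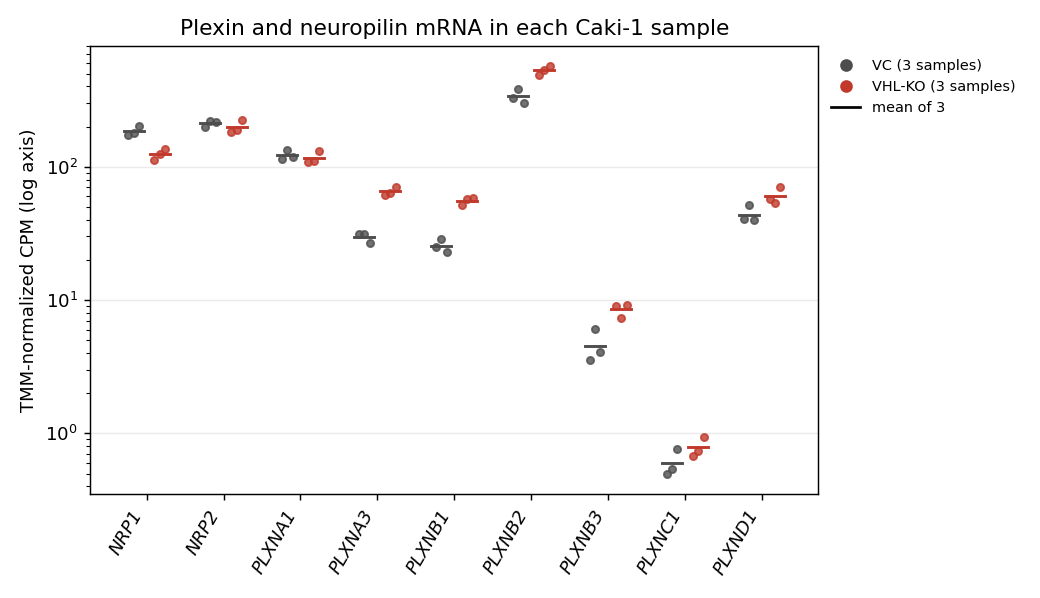
TMM-normalized CPM (log axis) of the 9 tested plexins and neuropilins in each of the 3 VC (grey) and 3 VHL-KO (red) samples, with a bar for the mean of each group. PLXNA3, PLXNB1 and PLXNB2 rise without overlap, NRP1 falls from 184.9 to 123.6 CPM, and NRP2 and PLXNA1 overlap.

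Of the 2 neuropilins, NRP1 was called lower and NRP2 was not called. NRP1, a receptor of SEMA3A and of VEGFA, had 5909, 5328 and 7675 counts in VC against 2988, 2668 and 2887 in VHL-KO, or 173.1, 179.3 and 202.2 against 111.9, 123.7 and 135.4 CPM. The highest VHL-KO sample stayed below the lowest VC sample, and NRP1 was 1.496-fold lower (log2 fold change -0.58, SE 0.10; edgeR adjusted p = 1.3e-05; -0.35 with offsets). NRP2, a receptor of SEMA3F and of VEGFC, had 199.9, 221.8 and 215.5 CPM in VC against 181.5, 189.3 and 223.1 CPM in VHL-KO. VHL-KO 3 was the highest of all 6 samples, the groups overlapped, and NRP2 was not called (log2 fold change -0.10, SE 0.09), though with library size alone it was called lower (-0.29); with offsets it was -0.07. NRP1 counts over NRP2 counts were 0.866, 0.808 and 0.938 in VC against 0.616, 0.653 and 0.607 in VHL-KO, with no overlap. This ratio is free of the scaling between libraries but not of each library's trend with GC content and length, and with offsets the log2 fold changes of these genes lay closer together (-0.35 and -0.07, against -0.58 and -0.10).

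Per kilobase of exon, PLXNB2 led the receptors in both groups, at 46.5 ± 5.63 CPM per kb in VC and 73.0 ± 5.17 in VHL-KO (SD, n = 3). In VC it was followed by NRP1 (16.0), NRP2 (15.3), PLXNA1 (10.8) and PLXND1 (4.58), where NRP1 and NRP2 lay within each other's SD. In VHL-KO the order was NRP2 (14.2), NRP1 (10.7), PLXNA1 (10.4) and PLXND1 (6.32), where the ranges of NRP1 and PLXNA1 overlapped, as did that of PLXND1 with those of PLXNB1 (5.68) and PLXNA3 (5.58), which came next. The neuropilins gave 31.0%, 29.2% and 35.0% of the summed receptor level in VC and 19.3%, 19.4% and 20.1% in VHL-KO. Over the same samples the summed plexin level was 67.8 ± 7.73 and 102 ± 7.71 CPM per kb, and the summed neuropilin level 31.3 ± 1.83 and 24.98 ± 2.58 CPM per kb. PLXNB2 alone made up 68.5% ± 0.85 of the plexin level in VC and 71.4% ± 1.05 in VHL-KO, and the class A plexins 19.8% ± 0.87 and 15.6% ± 0.53.

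The rest of the pathway was listed as 64 genes, of which 52 were tested, with 17 called higher, 22 lower and a median log2 fold change of -0.07, where 28.5% and 31.2% of all genes tested were called higher and lower. The counts of its 5 lists, given next, are to be read beside those shares. Proteases that cleave semaphorins gave 1 higher and 3 lower of 6 tested. MMP14, a membrane metalloprotease that sheds SEMA4D, had 2730, 2711 and 2944 counts in VC against 267, 261 and 263 in VHL-KO, a fall in every VHL-KO sample (log2 fold change -2.86, SE 0.12). The sheddases ADAM10 (-0.33, SE 0.12) and ADAM17 (0.27, SE 0.11; 0.77 with offsets) were called in opposite directions, but both calls were lost under some alternatives and ADAM10 turned to 0.19 and was called higher with offsets. SEMA4D was thus higher in the same samples in which MMP14 was lower and ADAM17 was called higher. With 59.7% of all genes called, such a pairing says little by itself, and a link was not tested.

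Neuropilin ligands and partners gave 3 higher and 3 lower of 7 tested. VEGFA, the endothelial growth factor that binds NRP1, had 870, 884 and 1001 counts in VC against 3585, 3431 and 3484 in VHL-KO. VEGFB, a ligand of NRP1 and of the receptor FLT1, had a log2 fold change of 1.69 (SE 0.10; 1.10 with offsets), whereas the related placental growth factor PGF had one of -1.32 (SE 0.19). VEGFA and VEGFB thus rose, and PGF fell, in cells in which NRP1 was lower. So many genes were called that these pairings say little by themselves, and a link was not tested. Of genes named after their values were seen, the endothelial growth factor receptors KDR, FLT1 and FLT4 had at most 9, 0 and 3 counts in any sample.

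Plexin partners and other semaphorin receptors gave 2 higher and 3 lower of 6 tested. ITGB1, the integrin chain through which SEMA7A also signals, had 21250, 16859 and 30422 counts in VC against 5068, 5002 and 5445 in VHL-KO (log2 fold change -1.56, SE 0.12; -1.07 with offsets). Its partner chain ITGA1 was at -0.86 (SE 0.21; -0.36 with offsets, where the call was lost) and the plexin-binding pseudokinase PTK7 at -0.61 (SE 0.12). SEMA7A, ITGB1 and ITGA1 were therefore lower in the same samples, while the plexin receptor of SEMA7A, PLXNC1, was not called. Whether these changes are linked was not tested. MET, the receptor kinase that associates with plexin B1 and was named after its values were seen, was not called (0.04, SE 0.10), but was called higher with offsets (0.35). The 2 genes called higher, also named after their values were seen, were CD72 and ERBB2. CD72 had only 7 to 50 counts in any sample (2.22, SE 0.45). ERBB2 was at 0.31 (SE 0.10), and its call was lost with offsets (0.05).

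Small GTPases and their regulators gave 5 higher and 7 lower of 17 tested, and cytoplasmic effectors 6 and 6 of 16. RAP1B, a GTPase on which the plexin GAP domain acts, was at -1.84 (SE 0.13, and -1.32 with offsets), and the Rac exchange factor TIAM1 at -1.62 (SE 0.22). Of GTPases named after their values were seen, RRAS was higher at 1.44 (SE 0.11; 0.64 with offsets), whereas its relative RRAS2 was lower at -0.85 (SE 0.10; -0.51 with offsets) and RAP1A at -0.67 (SE 0.16; -0.13 with offsets, where the call was lost). Among effectors, the kinase FYN, which acts downstream of SEMA3A, was at 1.87 (SE 0.16), the collapsin response mediator DPYSL4 at 1.25 (SE 0.15; 0.82 with offsets) and MICAL1, an actin-oxidising enzyme that binds plexins, at 1.08 (SE 0.11). Relatives of these, also named after their values were seen, went the other way, MICAL2 at -1.03 (SE 0.10), MICAL3 at -1.06 (SE 0.13) and DPYSL3 at -0.55 (SE 0.09). Neither group leaned to a single side, with medians of -0.07 and -0.04.

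**Figure D5:**
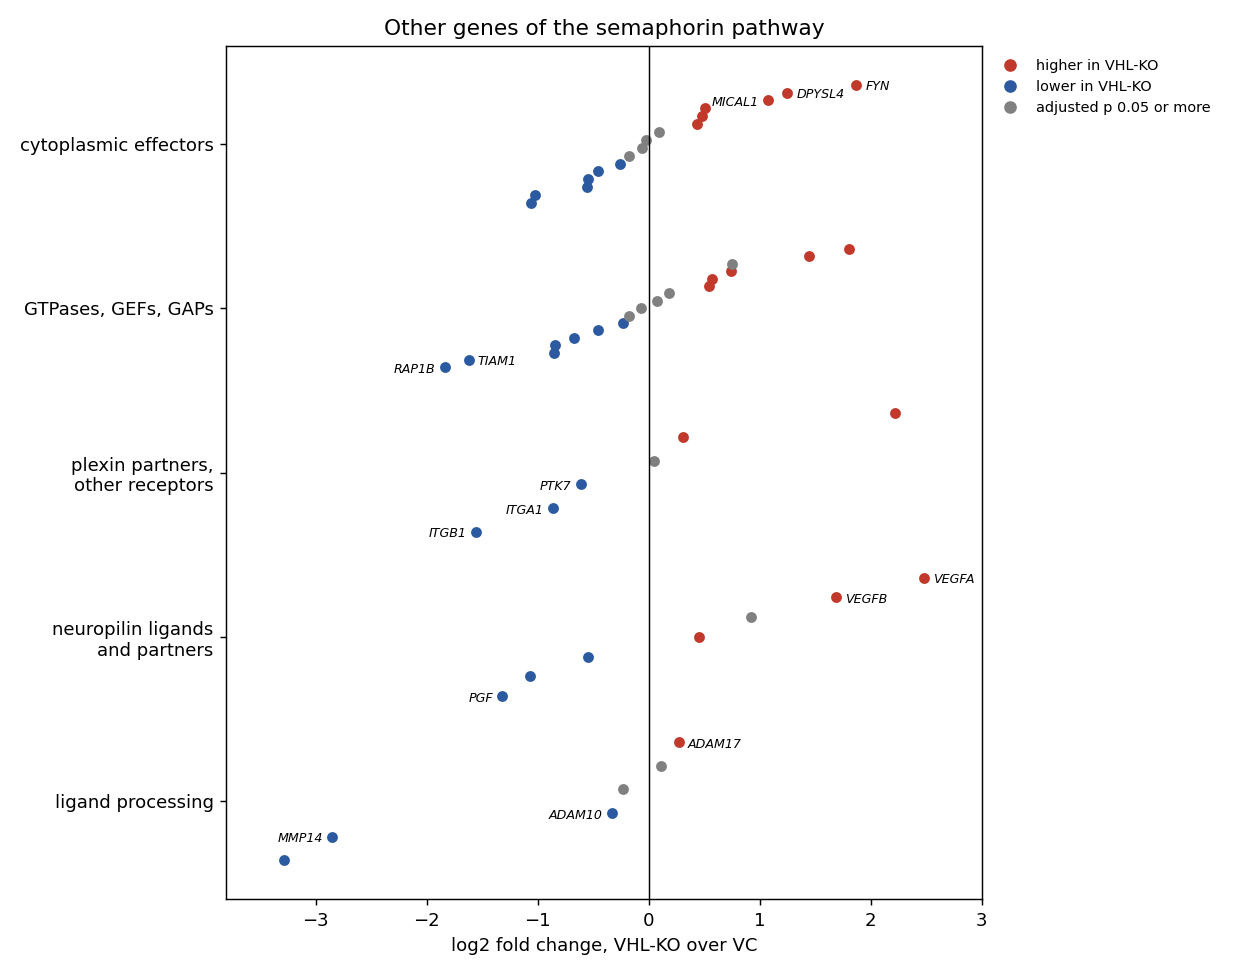
Log2 fold change of VHL-KO over VC for the 52 tested genes of 5 pathway lists, 1 point a gene, red for higher, blue for lower and grey for adjusted p of 0.05 or more in edgeR, with the genes named by the rule and described in the text labelled. MMP14, at -2.86, and VEGFA, at 2.48, are the labelled genes farthest out.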

How the data were processed

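RNA from 3 VC and 3 VHL-KO Caki-1 samples was sequenced on an Illumina NovaSeq. The authors deposited raw counts per gene: per the study's methods and processing notes, reads were trimmed (Trim Galore, cutadapt), aligned to GRCh38.p13 with STAR, kept if they mapped to a single place (SAMtools) and counted with HTSeq; versions and strand setting are not given in the sources used here. The counts were fitted in edgeR 4.0.16 (R 4.3.3; TMM factors, quasi-likelihood F test, two-sided) over genes reaching 10 reads in some sample, with Benjamini-Hochberg adjustment over all 17401 genes; SE is the absolute log2 fold change over the square root of F. The script was tested on simulated counts in which few genes changed, evenly in both directions, with no GC trend. That test does not show how the scaling or the offsets perform in these data. Alternatives were DESeq2 1.42.0, other scaling factors and filters, GC and length offsets (natural splines with 5 df), a replicate block and leaving out each sample. Positions, exonic length and GC came from GENCODE 44, promoter windows from RefSeq. Counts in every sample are given for members called with at least 2-fold change and for the 5 ligands and 5 receptors at the highest level per kilobase in either group; of each other list, the 3 called genes with the largest change and a mean of at least 100 normalized counts are named, except 1 that is not reported here. Members and lists were chosen with earlier results of these data known. Protein sequences were not used here.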

Additional observations from a re-analysis of the deposited data

How the results depend on the processing

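Over the alternatives, 9215 to 10501 genes were called, and with the replicate block 10284; the same-numbered samples did not deviate together (correlations 0.0627, -0.000449 and 0.0283), so the numbers were not taken to pair samples, and the block left the counts of called ligands (5 higher, 5 lower) and receptors (5 higher, 1 lower) as they were. Leaving out any 1 sample lost none of the 16 called members. Receptors called lower numbered 3 with library size alone and 2 with GC and length offsets, against 1. With upper quartile scaling the direction turned for SEMA3F (0.031), SEMA4C (0.071), PLXNA1 (0.049) and NRP2 (0.010), none of them called either way. On leaving out a sample the log2 fold change ranged from -0.15 to 0.075 for SEMA4C, -0.15 to 0.027 for PLXNA1 and -0.27 to 1.01 for SEMA3G. The median of ligands was -0.01 when 10 reads were required in every sample and 0.04 without VC replicate 3, and that of receptors 0.24 with offsets. The cause of these shifts was not tested. Over VHL and the 25 tested members, 332 of the values from single alternatives kept direction and side of the threshold, 9 became called, 8 lost the call (4 of VHL, 2 of PLXND1 and 1 each of SEMA3A and SEMA6C) and 11 changed sign. At this depth 6 members had too few counts to be tested.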

Other observations

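Other guidance families were measured in the same fit. Of 7 tested ephrins, the membrane-bound ligands of Eph receptors, 5 were called higher and 2 lower (edgeR, Benjamini-Hochberg adjusted), where 28.5% of all genes tested were called higher and 31.2% lower, shares that also go with the counts of the other families below. The call of EFNA4 (0.73, SE 0.15), a gene named after its values were seen, was lost with GC and length offsets (0.10; edgeR adjusted p = 0.494). EFNA3 had 23, 18 and 28 counts in VC against 215, 155 and 127 in VHL-KO (log2 fold change 3.38, SE 0.23; 2.78 with GC and length offsets), with 43.9% of its exonic bases shared with EFNA4-EFNA3 on the same strand, and EFNA1 341, 331 and 372 against 1134, 936 and 789 (1.99, SE 0.12). Both were higher in every VHL-KO sample than in any VC sample, whereas EFNB2 was lower in all 3, at 777, 663 and 1051 counts against 154, 161 and 146 (-1.86, SE 0.15), with 36.4% of its exonic bases overlapping a gene on the other strand. Of 8 tested Eph receptors, 2 were called higher and 2 lower, among them EPHA4 (0.71, SE 0.18), EPHB4 (0.54, SE 0.10; 0.19 with offsets) and EPHA2 (-0.31, SE 0.10; -0.64 with offsets). The call of EPHA2 was lost with upper quartile scaling and without VHL-KO replicate 1.

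Slits and their Robo receptors gave 1 higher and 2 lower of 4 tested. ROBO1 was at -1.37 (SE 0.15), SLIT2 at -0.998 (SE 0.20) and ROBO3 at 0.58 (SE 0.13; 0.18 with GC and length offsets, where the call was lost). Among netrins and their receptors 1 was higher and 2 were lower of 6 tested. The 2 lower genes, named after their values were seen, were UNC5A and NTN4, with few counts. UNC5A had 34, 35 and 33 counts in VC against 2, 5 and 2 in VHL-KO (-2.92, SE 0.55). NTN4 had 84, 71 and 123 counts in VC against 10, 13 and 29 in VHL-KO (-1.83, SE 0.34). NEO1, the netrin and repulsive guidance molecule receptor neogenin, had 245, 219 and 247 counts in VC against 776, 688 and 817 in VHL-KO (2.24, SE 0.14), with every VHL-KO sample above every VC sample.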
